A study of Homo sapiens with 2 samples.

Results

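Both arms of miR-21, hsa-miR-21-5p and hsa-miR-21-3p, were examined in A549 cells under normoxia and hypoxia. They were taken by name and are 2 of the 859 mature miRNAs, and of the 5475 small RNA features, for which counts were deposited. A549 is an established human lung adenocarcinoma cell line. Cells of this line were kept for 24 h at 20% oxygen (normoxia) or at 1.2% oxygen (hypoxia) in the same serum-supplemented medium, and small RNAs were sequenced from total RNA. There was 1 library per condition, so differences between them could not be checked against replicates, no test was made and no p-value is given. The table held 6449337 counts in normoxia and 13115226 in hypoxia, of which 4514818 and 8600160 fell on mature miRNAs.

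A miRNA gene is transcribed as a long precursor that is cut to a hairpin, and the hairpin is then cut to a short duplex of its 5p and 3p arms. The more abundant arm, or guide, is loaded into an Argonaute protein and pairs with messenger RNAs mainly through its seed, while most of the other arm is degraded. The 5p arm is the guide of miR-21. It is among the best known miRNAs that promote carcinomas, lung adenocarcinoma included. The 3p arm is the passenger strand of the same hairpin.

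Mature sequences are shown for miR-21-5p, for miR-590-5p, which has the same seed, and for the miRNAs that ranked next to miR-21-5p by counts, against which its level is read. The seed, bases 2 to 8 from the 5′ end, is in capitals. Sequences are from RefSeq (GRCh38.p14).
miR-21-5p: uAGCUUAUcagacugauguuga
miR-590-5p: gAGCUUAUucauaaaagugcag
miR-22-3p: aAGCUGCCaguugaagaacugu
miR-23b-3p: aUCACAUUgccagggauuaccac
miR-31-5p: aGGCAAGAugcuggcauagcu
miR-30a-5p: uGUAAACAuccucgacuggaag
miR-19b-3p: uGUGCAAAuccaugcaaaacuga

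The MIR21 hairpin covers 72 bases of the plus strand at chr17:59841266-59841337 in GRCh38, and miR-21-5p lies at chr17:59841273-59841294. In the GENCODE annotation the hairpin is inside the gene VMP1, which encodes a membrane protein needed for autophagy and is transcribed in the same direction. It lies in an exon of the retained-intron transcript VMP1-216 and starts 173 bases past the end of the principal protein-coding transcript. The deposited table places miR-21-5p at chr17:57918633-57918656 and miR-21-3p at chr17:57918671-57918693 in hg19. For miR-21-5p this holds 1 extra base on each side of the mature miRNA. The same was assumed for miR-21-3p, which had no mature sequence in RefSeq. No other mature miRNA of the table had the sequence of either arm.

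The guide arm was the most abundant miRNA of both libraries by a wide margin. miR-21-5p had 3260103 counts in normoxia, which was 72.2% of the mature counts (exact Clopper-Pearson 95% interval 72.17 to 72.25). In hypoxia it had 5878970 counts, or 68.4% (68.33 to 68.39). The share in hypoxia was thus smaller by 3.85 percentage points (3.80 to 3.90), a difference far larger than the counting error. These intervals, and all others given here, were computed from the counts alone, because there were no replicates. They cover counting error only and hold nothing of the spread between cultures. They also treat each read as an independent count. The libraries were amplified by PCR without molecular identifiers, so the intervals may be too narrow even for counting error. Of all counts in the table, miR-21-5p alone took 50.5% in normoxia and 44.8% in hypoxia. A lower amount of miR-21-5p and a larger amount of the other small RNAs cannot be told apart in such data. Nor can fewer cells with the miRNA and less of it per cell.

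The passenger arm was far less abundant, yet it stood above most miRNAs. In normoxia miR-21-3p had 5919 counts, or 1311 CPM (1278 to 1345), which are counts per 1000000 mature counts, and ranked 48th of 859. In hypoxia it had 10497 counts, or 1221 CPM (1197 to 1244), and ranked 55th. Each miRNA yields a read of about its own length, so CPM values were compared between miRNAs without scaling by length. On this scale miR-21-3p lay above miR-210, the miRNA best known for its induction by low oxygen, in normoxia (954 CPM) and below it in hypoxia (2657 CPM).

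**Figure D1:**
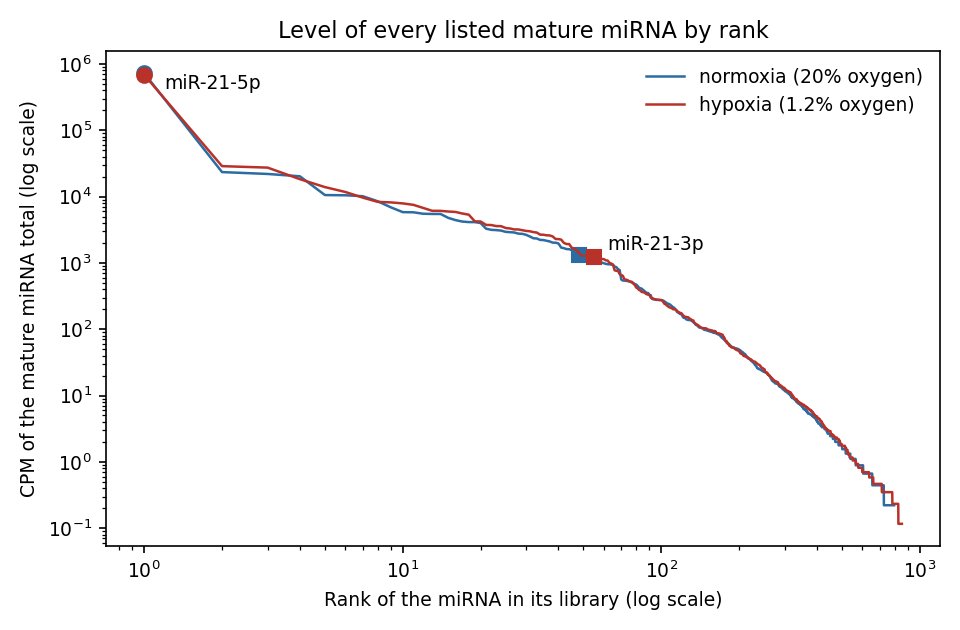
Level of each mature miRNA (CPM of the mature total, log scale) against its rank in the library (log scale), in normoxia (blue) and hypoxia (red); circles mark miR-21-5p, squares miR-21-3p, and miRNAs at 0 counts (64 and 7) are not drawn. miR-21-5p stands apart at rank 1 of both libraries, and miR-21-3p lies at ranks 48 and 55.

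No other miRNA came near miR-21-5p. In normoxia it had 30.9 counts per count of miR-22-3p, the next most abundant miRNA, followed by miR-23b-3p, miR-31-5p, miR-30a-5p, miR-19b-3p, miR-92a-3p, miR-27b-3p, miR-100-5p and miR-106b-5p. In hypoxia it had 23.8 counts per count of miR-31-5p, the next one there, followed by miR-23b-3p, miR-22-3p, miR-19b-3p, miR-30a-5p, miR-92a-3p, miR-100-5p, miR-30c-5p and miR-27b-3p. Together the miRNAs of ranks 2 to 10 held 11.8% (normoxia) and 13.4% (hypoxia) of the mature counts, and the remaining 849 held 16.02% and 18.25%.

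**Figure D2:**
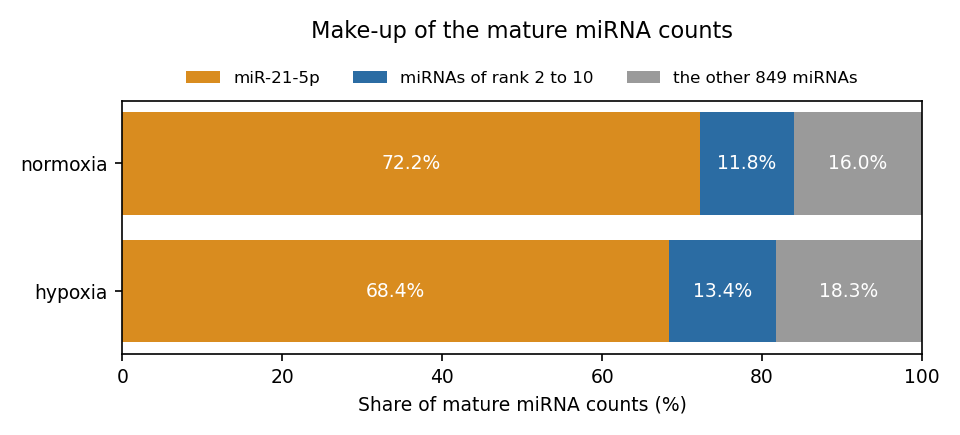
Share of the mature miRNA counts (%) taken by miR-21-5p (orange), by the miRNAs of rank 2 to 10 (blue) and by the other 849 miRNAs (grey) in each library. miR-21-5p takes 72.2% in normoxia and 68.4% in hypoxia.

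Because of this share, the scale of every other miRNA depends on whether miR-21-5p is part of the total. Without it the mature totals were 1254715 counts in normoxia and 2721190 in hypoxia. Against those totals miR-21-5p had 2.60 counts per count of all other mature miRNAs together in normoxia and 2.16 in hypoxia. The CPM of every other miRNA was 3.60 times as high in normoxia and 3.16 times as high in hypoxia once miR-21-5p was taken out, so that miR-21-3p stood at 4717 CPM (4598 to 4839) and 3858 CPM (3784 to 3932). With miR-21-5p in the total, and counted itself, 59 miRNAs in normoxia and 63 in hypoxia were at or above 1000 CPM, while without it 93 and 89 of the others were. With miR-21-5p in the total, 1 miRNA held more than 50% of the counts of either library, and 24 and 28 held 90%. Without it 13 miRNAs were needed for 50% in both libraries, and 68 and 64 for 90%. The limit that a count of 0 allows, taken as 3 counts, came to 0.664 CPM (normoxia) and 0.349 CPM (hypoxia) with miR-21-5p in the total, and 2.39 and 1.10 CPM without it.

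Both arms had fewer counts in hypoxia than the growth of the library would give. The hypoxia library held 1.90 mature counts per mature count of normoxia, and 2.17 when miR-21-5p was left out. For miR-21-5p itself this number was 1.80 (1.801 to 1.806), and for miR-21-3p it was 1.77 (1.72 to 1.83). The arms therefore grew alike within counting error, and both grew less than the rest of the mature miRNAs.

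After scaling by the trimmed mean of M values (TMM), miR-21-5p had a hypoxia to normoxia log2 ratio of -0.19 (-0.195 to -0.192) and miR-21-3p one of -0.22 (-0.26 to -0.17). These are ratios of 0.874 and 0.860. With the mature total that includes miR-21-5p they were -0.08 and -0.10, and with the total that leaves it out they were -0.27 and -0.29. Both arms were below 0 under each of the 7 scalings computed, but the choice of scaling moved the value of miR-21-5p over a range of 0.187, against a counting interval only 0.0039 wide. For miR-21-3p the range was also 0.187, against an interval 0.092 wide. The scalings thus differed by far more than the counting error for miR-21-5p and by less of a margin for miR-21-3p, and the spread between cultures, which may be larger than either, was not measured.

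Taking miR-21-5p out of the total lowered the log2 ratio of all miRNAs alike, by 0.187 before the prior count enters, so it changed the position of 0 and not the order of the miRNAs. The median log2 ratio of the 339 miRNAs with a mean log2 CPM above 3 was -0.03 under TMM, 0.08 with miR-21-5p in the mature total and -0.11 without it. Relative to that median, miR-21-5p lay at -0.16 and miR-21-3p at -0.18 under all 3 of these scalings. A denominator shifts all miRNAs and their median alike, so this distance is the same by construction, apart from the prior count.

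**Figure D3:**
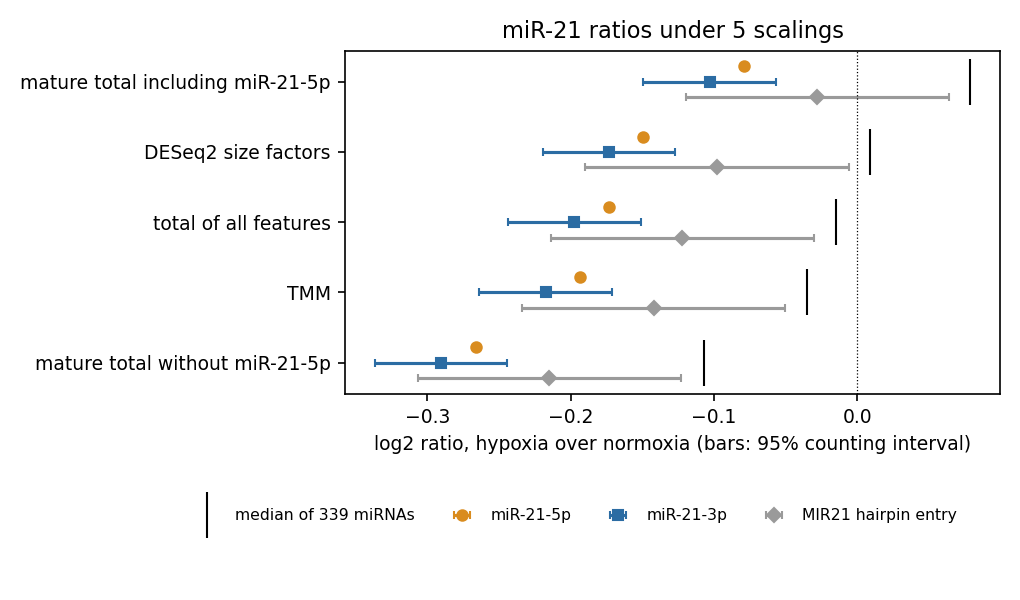
log2 ratio of hypoxia over normoxia for miR-21-5p (circles), miR-21-3p (squares) and the MIR21 hairpin entry (diamonds) under 5 scalings, with 95% counting intervals (those of miR-21-5p are narrower than the symbol); vertical ticks mark the median of 339 miRNAs. All 3 features lie left of 0 and left of the median under each scaling drawn, and the interval of the hairpin entry crosses 0 with the mature total that includes miR-21-5p.

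Set beside the other miRNAs, the ratios of both arms were unremarkable in size. Of the 339 miRNAs past the expression filter, 112 (33.0%) had a log2 ratio below that of miR-21-5p and 104 (30.7%) below that of miR-21-3p. The quartiles over all 339 were -0.33 and 0.27, so both arms lay between them. A miRNA was called where its log2 ratio was 0.9 or more away from 0 and its mean log2 CPM was above 3 (the size rule). Under TMM this called 23 miRNAs (6.78%), 8 of them higher (2.36%) and 15 lower (4.42%) in hypoxia. Neither arm of miR-21 was among them, under TMM or under either mature total.

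The split of these calls differed between scalings. With the mature total that includes miR-21-5p, 12 miRNAs were higher (3.54%) and 11 lower (3.24%), again 6.78% in all, so the share of higher calls was 52.2% against 34.8% under TMM. Without it, 474 miRNAs passed the filter because every CPM was larger, and 39 were called (8.23%), of which 9 were higher (1.9%) and 30 lower (6.33%), a share of higher calls of 23.1%. Over the same 339 miRNAs as under TMM, a choice made after seeing the data, the total without miR-21-5p gave 5 higher (1.47%) and 17 lower (5.01%), or 6.49% in all. DESeq2 size factors gave 8 higher (2.36%) and 15 lower (4.42%) of 339, the same numbers as TMM. With the total of all features, which also holds miR-21-5p, 302 miRNAs passed the filter and 19 were called (6.29%), 7 higher (2.32%) and 12 lower (3.97%), a share of higher calls of 36.8%.

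**Figure D4:**
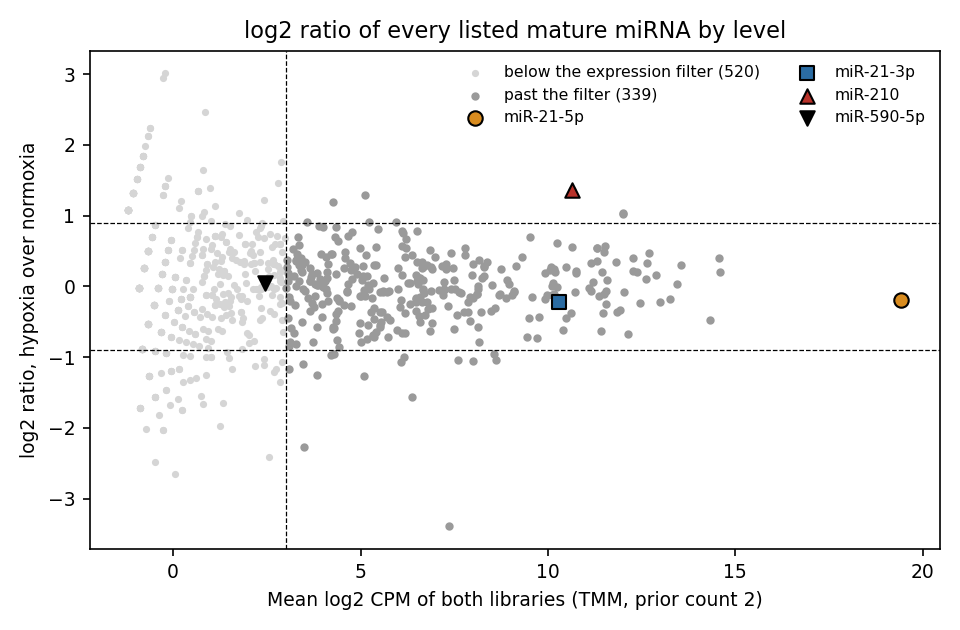
log2 ratio of hypoxia over normoxia (TMM, prior count 2) against the mean log2 CPM of both libraries for each mature miRNA; dashed lines mark the size rule (0.9 in either direction, mean log2 CPM of 3). miR-21-5p lies alone at the right end at -0.19, miR-21-3p at -0.22, miR-210 above the upper line at 1.36 and miR-590-5p left of the expression filter.

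The use of the arms was the same in both libraries within counting error. There were 551 counts of miR-21-5p per count of miR-21-3p in normoxia (537 to 565) and 560 in hypoxia (549.4 to 570.9). The passenger arm made up 0.181% of the counts of both arms in normoxia (0.177 to 0.186) and 0.178% in hypoxia (0.175 to 0.182). The change in log2 of 3p over 5p from normoxia to hypoxia, into which no scaling enters, was -0.02 (counting SE 0.023; interval -0.07 to 0.02), and this interval holds 0. Among the 111 hairpins with at least 10 counts of each arm in each library, only 4 of the other 110 had a smaller change in size. The median size of the change was 0.43 and the largest was 1.62. The counting error of miR-21 was also among the smallest, with 1 hairpin below it, against a median SE of 0.23.

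The excess of the 5p arm was among the most extreme of these hairpins. By log2 of 5p over 3p averaged over the libraries miR-21 ranked 5th, behind miR-181b, miR-30d, miR-20a and miR-30b, and 7th when an excess of either arm was counted. The minor arms of the 4 hairpins ahead of it had between 10 and 57 counts, so their order is loosely fixed. With at least 100 counts of each arm miR-21 ranked 1st of 47, but such a minimum keeps a hairpin of this skew only where its major arm is very abundant. Among the 72 hairpins with fewer than 10 counts of an arm in a library but at least 1 of each, 3 had a higher value than miR-21, namely miR-191, miR-99a and miR-450a (named after their values were seen), with 2 to 15 counts of the minor arm. The nearest hairpins to it were miR-30b, miR-20a, miR-30d, miR-374b and miR-181a, and the median over the 111 was 10.5 counts of the major arm per count of the minor one. Although miR-21-3p is so small a part of its own hairpin, only 2 hairpins had more counts of their minor arm in normoxia.

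**Figure D5:**
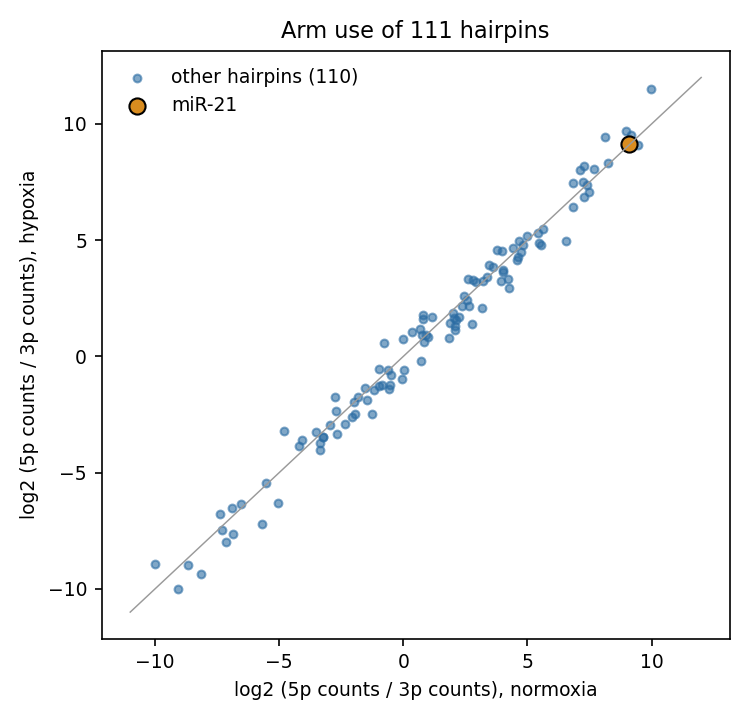
log2 of 5p counts over 3p counts in hypoxia against the same in normoxia for 111 hairpins with at least 10 counts of each arm in each library; the line marks equal values. miR-21 (orange) lies on the line near the upper end, at 9.11 in normoxia and 9.13 in hypoxia.

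The table also lists 506 miRNA entries at the level of the hairpin, and MIR21 was at the head of them. Its hairpin entry had 1482 counts in normoxia and 2769 in hypoxia, the 2nd and the 1st highest of these entries and 14.02% and 15.49% of their counts. These are far fewer counts than those of the mature arms, so the entry does not include the mature reads. They were 0.25 and 0.26 counts per count of miR-21-3p. The log2 ratio of the entry was -0.14 under TMM (-0.23 to -0.05), -0.21 without miR-21-5p in the mature total, and -0.03 with it (-0.12 to 0.06), where the interval holds 0.

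Against its mature counts, however, the MIR21 entry was small. It came to 0.0454% of the counts of both arms in normoxia and 0.0470% in hypoxia. Over the 46 hairpins with at least 10 hairpin-level and 10 mature counts in each library, the medians were 0.630% and 0.741%. None of the other 45 had a lower percentage in normoxia and 1 had in hypoxia, although hairpins with fewer than 10 hairpin-level counts are not part of this set.

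Reads of another miRNA added almost nothing to the seed of miR-21-5p. Of the 850 mature miRNAs with a sequence long enough to read a seed, only miR-590-5p shared it, and none shared the seed of miR-21-3p. Seeds were read from the 3rd base of each sequence in the table. Of the 687 miRNAs matched to RefSeq by name, 675 start 1 base before the mature sequence, and the unmatched ones were not checked. miR-21-3p had no mature sequence in RefSeq, so its seed could not be checked and its sequence is not shown. miR-590-5p had 22 counts in normoxia and 47 in hypoxia (4.87 and 5.47 CPM), with a log2 ratio of 0.05 (-0.71 to 0.85). For each of its counts there were 148186 of miR-21-5p in normoxia and 125084 in hypoxia, and 10 base edits separate the mature sequences of these miRNAs. The seed as a whole held 72.2% and 68.4% of the mature counts, the shares of miR-21-5p alone to 3 digits. Among the 700 distinct seeds, the next were those of the miR-30 family, led by miR-30a-5p (2.41% and 3.03%), of miR-22-3p (2.34% and 1.83%), of miR-23b-3p (2.22% and 2.76%) and of miR-31-5p (2.02% and 2.87%). The table holds 1 count per mature miRNA, so variants of miR-21-5p with another 5′ start, and hence another seed, could not be examined.

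The miRNAs most like each arm were found by the absolute difference of TMM log2 ratios, over 2 libraries and among 108 miRNAs with at least 1000 counts in each. For miR-21-5p these were miR-92a-3p and miR-28-5p (both -0.18), its own 3p arm, miR-27b-3p (-0.22) and miR-4256 (-0.23). For miR-21-3p they were miR-27b-3p, miR-4256, miR-106b-5p (-0.24), its own 5p arm and miR-92a-3p. Each arm thus appears among the 5 nearest to the other. With 2 libraries this measure compares 1 ratio per miRNA and cannot set these neighbours apart from others of like ratio.

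miR-21 was also set beside lists of other miRNAs described in low oxygen or in carcinomas. The lists hold neither arm of miR-21, which says nothing of its own roles. Of 16 miRNAs widely described as responding to low oxygen, 15 were listed and 14 passed the expression filter. Of these 14, 1 was higher and 2 were lower by the size rule, against 2.36% higher and 4.42% lower over all 339. Their median log2 ratio was 0.15, against -0.03 over all 339. The higher one was miR-210, with 4307 counts in normoxia and 22849 in hypoxia and a log2 ratio of 1.36 (1.32 to 1.41). The lower ones were miR-424-5p (-1.04) and miR-103a-3p (-0.96), and the latter did not pass the rule with miR-21-5p in the mature total (-0.84). Of these 14 miRNAs, 6 had a log2 ratio below that of miR-21-5p.

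Of 14 miRNAs described, like miR-21-5p, as promoting carcinomas, all were listed and 13 passed the filter. In this list 1 was higher, miR-221-3p (1.03), none was lower, the median log2 ratio was -0.07 and 5 lay below miR-21-5p. All 17 miRNAs described as restraining carcinomas passed the filter, none was called, the median was -0.13 and 8 lay below miR-21-5p. miR-21-5p thus lay within the spread of both lists. Over all miRNAs past the filter 6.78% were called, and no list was tested against them.

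Markers of the cell type were read to check the label. All 5 epithelial miRNAs of the miR-200 family passed the filter, with a summed level of 1165 CPM in normoxia and 1360 CPM in hypoxia. The larger sum came from miR-200b-3p, the most abundant of them (880 and 1085 CPM); under TMM its log2 ratio was above 0 and those of the other 4 were below 0. Leukocyte miRNAs (3 of 4 listed) had 8 and 10 counts in all, led by miR-142-3p, and the hepatocyte miRNA miR-122-5p had 4 in each library. The erythroid list (3 of 4 listed) had 192 and 426 counts, led by miR-486-5p, and the neural list 235 and 457, nearly all of miR-9-5p. Of 3 striated muscle miRNAs 1 was listed, miR-133a, with 0 counts in normoxia and 18 in hypoxia. Endothelial markers, led by miR-126-3p, summed to 1001 and 1900 counts (222 and 221 CPM), and mesenchymal ones, led by miR-143-3p, to 835 and 1468 (185 and 171 CPM). Both libraries are labelled as a cell line, so these counts are not read as other cell types being present. Where they came from, and whether they have any part in the miR-21 ratios, was not tested.

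The classes of small RNA beside the mature miRNAs also differed in share between the libraries. Other mature miRNAs went from 19.5% to 20.7% of all counts, fragments of rRNA from 3.77% to 6.55% and of snRNA from 4.55% to 6.15%. Like miR-21-5p, which went from 50.5% to 44.8%, the larger class of tRNA entries had a smaller share in hypoxia (8.31% and 7.25%), as had piRNA entries (0.947% and 0.829%) and the hairpin-level miRNA entries (0.164% and 0.136%). All classes are in the denominator of these shares, so the share of miR-21-5p in all counts depends on theirs. The mature total holds only mature miRNAs, so the other classes do not enter the share of miR-21-5p in it. Whether the classes are linked to the level of miR-21-5p in any other way was not tested.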

How the data were processed

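For 1 normoxia and 1 hypoxia library, the deposited values are the raw read counts of each small RNA feature, which the authors did not normalize. Libraries were made by adapter ligation for the SOLiD platform, size-selected and amplified by PCR, and ligation and PCR can favour some miRNAs, so levels of different miRNAs are less comparable than 1 miRNA between libraries. The study's methods name the LifeScope small RNA pipeline and miRBase for SOLiD data, without naming this experiment; the build in the submitters' processing notes is hg19. No feature of the table had fewer than 3 counts summed over the libraries. The members and lists were chosen with earlier results of these data known.

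Mature miRNAs were the entries with a miRBase mature identifier. The design named all miRNA entries as the denominator of the shares, while the rule for the members named the mature total. The mature total was used, because the hairpin-level entries are not mature miRNAs. The total with hairpin-level entries is given as an alternative, added after seeing the data. Log2 ratios used log2 CPM with a prior count of 2 after TMM (edgeR 4.0.16, R 4.3.3), over all mature miRNAs. Shares have exact Clopper-Pearson and ratios exact conditional binomial 95% intervals (scipy 1.17.1, Python 3.11.15); the interval of the arm change and of the difference in share is a normal approximation from the counts. Alternatives were DESeq2 1.42.0 size factors, totals with and without miR-21-5p, the total of all features, filters, a prior count of 0.5 and thinning of the deeper library. The calculation was also run on simulated data in which miR-21-5p was left unchanged. That run therefore does not cover a change in miR-21-5p itself. Of the mature miRNAs, 687 matched RefSeq by name, and 653 of these carried exactly 1 extra base on each side in the table, so seeds were read from the 3rd base. Hairpin entries were named by GENCODE 29.

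The miRNAs named are both arms of miR-21, those with the seed of either arm and the 10 most abundant of each library. So are the 5 nearest to each arm in log2 ratio, the 5 hairpins nearest to miR-21 and the 5 highest in 5p over 3p. The others are miR-210 and members of the lists. miR-191, miR-99a and miR-450a were added after their values were seen.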

Additional observations from a re-analysis of the deposited data

How the results depend on the processing

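Of the alternatives to 11 results, 18 stayed within the counting interval or, for a count, within 1.5 times, and 23 moved. A change of sign was possible only for the log2 ratios and the arm change, and all 16 alternative values of the former and all 3 of the latter were below 0. For miR-21-5p the log2 ratio was -0.079 with the mature total, -0.27 without miR-21-5p in it, -0.15 with DESeq2 size factors, -0.17 with the total of all features, -0.17 with TMM over miRNAs with at least 10 counts in each library and -0.21 after thinning of the deeper library. For miR-21-3p it was -0.10 with the mature total and -0.29 without miR-21-5p in it.

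Against all counts in the table the share of miR-21-5p was 50.5% in normoxia and 44.8% in hypoxia, as was that of its seed (50.5% and 44.8%), and that of miR-21-3p was 0.0918% and 0.0800%. Against the mature total without miR-21-5p the share of miR-21-3p was 0.472% and 0.386%, and miR-21-5p itself came to 259.8% and 216% of it. With hairpin-level entries in the denominator miR-21-5p took 72.0% and 68.2%. This denominator was added as an alternative after seeing the data. So were TMM computed without miR-21-5p, which left both log2 ratios within their counting intervals, and the arm change with a prior count of 2. The size rule with the total of all features (19 miRNAs) was added then too. So was the size rule over the same 339 miRNAs without miR-21-5p in the total (22). By the size rule 39 of 474 miRNAs were called in place of 23 of 339 when miR-21-5p was left out of the total. Without a filter on low counts 179 of 859 were called, and these include miRNAs of few counts, whose ratios have wide counting intervals. In both cases more miRNAs were tested. Lower calls outnumbered higher ones under TMM (15 and 8 of 339). They did not with miR-21-5p in the mature total (11 and 12 of 339) or without a filter (80 and 99 of 859). The rank of miR-21 by 5p over 3p went from 5 to 1 with at least 100 counts of each arm, where fewer hairpins were compared.

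No paired analysis was possible because there was 1 library in each group, and for the same reason none was left out. Depth limits miR-590-5p, whose counting interval spans 0. For miR-21-5p the counting error is small, and the error between cultures is not known.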
